A study of Mus musculus with 10 samples.

Results

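Integrins and laminins are the cell-surface receptors and the basement membrane proteins through which cells of a vessel wall hold on to their surroundings. Their subunit genes were taken from a table of RNA levels in mouse fistula vein by the pattern of their symbols among protein-coding genes, which gave 37 of the 43346 genes in the table and of the 22032 that are protein-coding. The 37 were 18 integrin alpha subunits, 8 integrin beta subunits and 11 laminin chains. The integrins were kept apart as 8 leukocyte integrin subunits and 18 matrix-binding subunits. The RNA came from the outflow vein of arteriovenous fistulas, which are direct joins of an artery to a vein, as made in patients who need access for haemodialysis. All mice were hCX3CR1 knock in animals of a strain given as C57. They carried the human form of the fractalkine receptor and all had chronic kidney disease, which was set up 28 days before the carotid artery was joined to the jugular vein. One group of 5 libraries came from mice injected intraperitoneally with antibody at 30 mg/kg, 2 times per week, and the other group of 5 from mice injected with vehicle in the same way, with the vein taken on day 7. The labels name the antibody both as one to human CX3CR1 and as one to fractalkine, and they do not state the ages of the animals or that each library came from a separate mouse, so the p-values measure the spread between libraries.

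An integrin is a pair of 1 alpha and 1 beta subunit, and the pair decides the ligand. Pairs with Itgb2 or Itgb7 are carried by leukocytes and bind adhesion molecules on other cells, whereas most pairs with Itgb1 bind collagens, laminins or fibronectin, and pairs with Itgav bind ligands that carry the RGD sequence. A laminin is a trimer of 1 alpha, 1 beta and 1 gamma chain, which polymerises into the sheet of the basement membrane under endothelium and around smooth muscle cells. In veins that carry arterial flow, leukocytes enter the wall and smooth muscle cells and fibroblasts build up new tissue on the inner side, so both kinds of integrin are of interest in this tissue.

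Levels were given as RPKM, reads divided by the length of the gene and the total of the library, and were scaled for library composition. Levels compared between genes rest on the deposited gene lengths, which can differ from those of other annotations. Itga1 was given 5984 bp and has 18599 exonic bases in the GENCODE M21 annotation, and Itga7 4013 bp against 8092. The libraries held 4282872 reads in antibody replicate 3 to 34271554 reads in vehicle replicate 4. Groups were compared with limma on log2(RPKM + 0.5) over 17859 genes that passed a filter on low reads, and every difference is antibody minus vehicle. A gene is said to have the higher or lower mean by the sign of this log2 difference. That can differ from the order of its mean RPKM. The added 0.5 understates the differences of genes read at low level. Markers of vein wall cells were present in every library, with summed levels of 132 to 180 RPKM for endothelium, 237 to 487 RPKM for smooth muscle and 3103 to 4855 RPKM for fibroblasts. Markers of skeletal muscle varied from 343 to 6168 RPKM and those of kidney tubule from 4.47 to 67.3 RPKM, in both groups.

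All 37 subunits passed the filter, and their mean levels spanned 0.150 RPKM for Lama1 to 150 RPKM for Itgb1. The subunits below 1 RPKM numbered 9 and those above 10 RPKM numbered 15. No subunit differed between antibody and vehicle at an adjusted p below 0.05 in limma, as for all genes tested, of which 0% were called and where limma-voom also called 0. At an unadjusted p below 0.05 in limma, 1 of the 37 subunits, Lama2, differed (2.70%), against 6.53% of all genes tested. It was at the lower mean after antibody, as were 2.98% of all genes tested at that p, while 3.55% were at the higher mean. Without antibody replicate 5 the number of such subunits was 8 of 37 (21.6%), against 8.47% of all genes tested in that fit. This was the highest number among 21 alternative fits, and the others gave 0 to 4. The subunits with the higher mean after antibody numbered 18 and those with the lower mean 19, a share of 48.6% higher beside 48.8% of all genes tested. The median log2 difference was -0.01 for the subunits and -0.01 for all genes tested. No subunit had groups that did not overlap, whereas 1.11% of all genes tested did. In the authors' deposited table, 0 of the 37 subunits had a p-value below 0.05, against 3.94% of the 39673 genes with a p-value there, and the lowest were 0.0501 for Lama2 and 0.0716 for Itgb4.

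**Figure D1:**
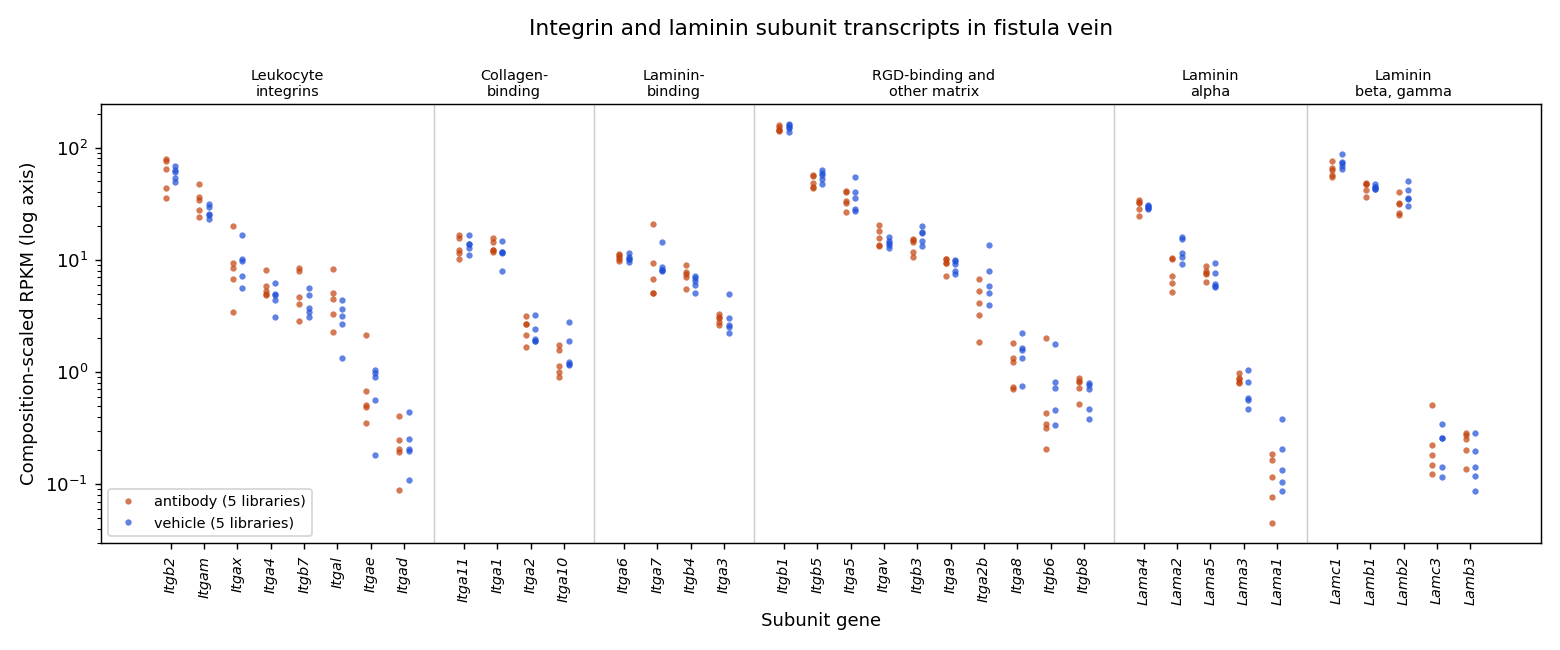
Level of the subunits in composition-scaled RPKM on a log axis, with 1 point per library for 5 antibody and 5 vehicle libraries, ordered by mean level within 6 classes. The points of both groups overlap for every subunit shown, and mean levels over the 10 libraries run from 0.150 RPKM for Lama1 to 150 RPKM for Itgb1.

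The leukocyte integrins were read at a summed level of 120 ± 39.3 RPKM after antibody and 109 ± 13.1 RPKM after vehicle (SD, n = 5). Of their 8 subunits, 5 had the higher mean after antibody and 3 the lower, with a median log2 difference of 0.16, and none had an unadjusted p below 0.05. The median coefficient of variation over the 10 libraries was 44.0% for the 8 leukocyte subunits, 20.8% for the 18 matrix-binding subunits and 21.5% for all genes tested. For tested genes with a mean above 5 RPKM it was 15.9%. Means below 1 RPKM were found for 2 of the 8 and 2 of the 18 subunits. The difference in spread was not tested. In the summed leukocyte integrins the antibody group was the wider one, from 73.5 RPKM in replicate 5 to 173 RPKM in replicate 1. It enclosed the vehicle range of 95.7 to 125 RPKM. In whole veins, a change in the number of leukocytes and a change in RNA per leukocyte cannot be told apart. The summed level of 6 markers of all leukocytes ran from 100 RPKM in antibody replicate 5 to 257 RPKM in antibody replicate 1, with 100 to 180 RPKM after vehicle. All 6 of these markers had the higher mean after antibody. Ptprc alone had an unadjusted p below 0.05 in limma, beside 6.53% of all genes tested. The part of these markers in the spread of the leukocyte integrins was not tested.

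Itgb2, the beta chain (CD18) shared by 4 leukocyte integrins, was the most abundant of the class. It was read at 79.4, 64.9, 76.1, 43.7 and 35.2 RPKM in antibody replicates 1 to 5. Vehicle replicates 1 to 5 held 63.2, 53.8, 67.9, 48.9 and 61.1 RPKM. The groups overlapped, with the antibody libraries at both ends of the range, and the means of 59.9 ± 19.6 and 59.0 ± 7.59 RPKM differed by less than the spread. On the log2 scale the difference was -0.04, so Itgb2 was counted among the subunits with the lower mean.

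The alpha chains that pair with Itgb2 include Itgam (CD11b), the subunit of the complement receptor of monocytes, macrophages and neutrophils, and Itgax (CD11c), known from dendritic cells and some macrophages. These genes lie next to each other on chromosome 7 in mm10, Itgam from 128062640 to 128128160 and Itgax from 128129547 to 128150656 in the deposited table, with 1386 bp between them. The GENCODE M21 annotation ends Itgam at 128118491, so this gap depends on the annotation. The bases upstream of the starts of both genes are shown because the pair lies side by side and both were read in each library. They are RefSeq windows on build GRCm38.p6, plus strand, chr7:128062390-128062639 for Itgam and chr7:128129300-128129546 for Itgax. Capitals mark GAGGAA or, for the other strand, TTCCTC, letters that the myeloid factor PU.1 is known to read.
Itgam: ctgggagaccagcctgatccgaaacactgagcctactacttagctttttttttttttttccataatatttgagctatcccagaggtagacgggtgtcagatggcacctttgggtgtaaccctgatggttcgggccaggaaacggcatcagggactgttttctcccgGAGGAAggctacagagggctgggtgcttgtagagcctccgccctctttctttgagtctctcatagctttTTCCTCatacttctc
Itgax: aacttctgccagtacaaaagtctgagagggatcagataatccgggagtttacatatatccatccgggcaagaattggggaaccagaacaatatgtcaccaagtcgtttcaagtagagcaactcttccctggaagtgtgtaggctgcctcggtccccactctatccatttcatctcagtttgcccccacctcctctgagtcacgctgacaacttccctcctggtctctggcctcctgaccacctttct
The Itgam window held the letters 1 time on each strand and the Itgax window 0 times. Of all 32851 RefSeq windows of 250 bases, 23.3% held them on either strand, so a match is common and is given as a description only. RefSeq windows were found for 23 of the 37 subunits, and 13 of these held the letters, among them Itgam alone of the 4 leukocyte subunits with a window.

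Itgam was read at 46.9, 33.9, 36.3, 27.9 and 24.3 RPKM in antibody replicates 1 to 5. In vehicle replicates 1 to 5 it was read at 25.8, 29.8, 31.7, 25.2 and 23.1 RPKM. Antibody replicates 1, 2 and 3 lay above every vehicle library, while replicates 4 and 5 lay within the vehicle range. The log2 difference was 0.29 (SE 0.17, 95% interval -0.09 to 0.66, limma unadjusted p = 0.118, adjusted p = 0.760). In the GENCODE M21 annotation 68.7% of the exonic bases of Itgam are shared with a longer transcript on the same strand, Gm49368, which has no row in the deposited table, so its reads cannot be told apart from those of Itgam. Summed markers of neutrophils, a cell type that carries Itgam, were 269, 264, 421, 61.6 and 61.1 RPKM in antibody replicates 1 to 5. In vehicle replicates 1 to 5 these sums were 49.4, 38.8, 107, 172 and 49.4 RPKM. All 6 neutrophil markers had the higher mean after antibody. At an unadjusted p below 0.05 in limma were 2 of them, beside 6.53% of all genes tested. The part of the neutrophil markers in the Itgam values was not tested. Summed markers of monocytes and macrophages were 1097 to 1831 RPKM after antibody and 1375 to 2009 RPKM after vehicle, and 6 of these 8 markers had the lower mean after antibody. Most of these sums was 1 marker, Lyz2, at a mean of 876 RPKM after antibody and 1089 RPKM after vehicle.

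Itgax was read at 20.0, 9.27, 8.41, 6.79 and 3.43 RPKM after antibody and at 16.7, 5.64, 10.2, 9.79 and 7.12 RPKM after vehicle. The highest and the lowest of the 10 values were both antibody libraries, and the log2 difference of -0.16 had an interval of -1.05 to 0.74. Of the RNA of the 4 alpha chains that pair with Itgb2, Itgam made up 71.9 ± 6.68% after antibody and 67.9 ± 8.86% after vehicle, and Itgax 18.4 ± 5.44% and 24.1 ± 7.72%. The shares overlapped between the groups. Itgad (CD11d), the fourth partner, made up 0.279% to 0.961% and was read at 0.0883 to 0.442 RPKM, from 5 to 39 reads per library.

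Itgal (CD11a), the alpha chain of the lymphocyte integrin LFA-1, was read at 8.26, 4.46, 5.09, 3.26 and 2.27 RPKM in antibody replicates 1 to 5. Vehicle replicates 1 to 5 held 3.13, 1.34, 4.35, 3.67 and 2.68 RPKM. Antibody replicates 1, 2 and 3 were the highest of the 10 libraries and the others were mixed. The log2 difference was 0.51 (SE 0.33, 95% interval -0.21 to 1.23, limma unadjusted p = 0.147, adjusted p = 0.771). Summed markers of T and NK cells, which carry this integrin, were 28.9 RPKM in antibody replicate 1, 6.90 to 12.2 RPKM in the other antibody libraries and 1.88 to 9.24 RPKM after vehicle. Of these 8 markers 7 had the higher mean after antibody, with a median log2 difference of 0.58 for the 8. At an unadjusted p below 0.05 in limma were 2 of the 7, beside 6.53% of all genes tested. The highest and lowest libraries of these markers, antibody replicate 1 and vehicle replicate 2, were also those of Itgal. Between these ends the order differed. Antibody replicate 2 held 8.28 RPKM of the markers and 4.46 RPKM of Itgal. Vehicle replicate 3 held 9.24 RPKM of the markers and 4.35 RPKM of Itgal. The part of the markers in the Itgal values was not tested.

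Itga4, which pairs with Itgb1 or Itgb7 and binds Vcam1, was read at 8.10, 4.85, 5.27, 5.87 and 4.95 RPKM after antibody. After vehicle it was read at 6.16, 3.08, 4.88, 4.39 and 4.91 RPKM. Only antibody replicate 1 lay above all vehicle libraries, and the log2 difference was 0.29 (SE 0.18, 95% interval -0.11 to 0.69, limma unadjusted p = 0.137, adjusted p = 0.771). Its partner Itgb7, of gut-homing lymphocytes, ranged from 2.88 to 8.49 RPKM after antibody and from 3.11 to 5.57 RPKM after vehicle. Itgae (CD103), the other partner of Itgb7 and a receptor for E-cadherin, was read at 2.13 RPKM in antibody replicate 1 and at 0.183 to 1.05 RPKM in the other 9 libraries. The groups overlapped for both.

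Among the matrix-binding integrins, the collagen receptors are Itga1, Itga2, Itga10 and Itga11, all partners of Itgb1. Their summed level was 30.2 ± 3.87 RPKM after antibody and 29.1 ± 3.38 RPKM after vehicle, and 2 of the 4 had the higher mean after antibody. Itga11, a receptor for fibrillar collagen on fibroblasts, was the most abundant, at 11.6, 16.7, 10.2, 12.1 and 15.6 RPKM after antibody and 13.8, 11.0, 16.5, 12.7 and 13.9 RPKM after vehicle. These values overlapped fully. Itga1, known from smooth muscle and binding collagen of basement membranes, was read at 15.7, 14.3, 11.8, 12.1 and 12.2 RPKM after antibody and at 14.8, 11.6, 11.8, 11.6 and 7.89 RPKM after vehicle. Vehicle replicate 5 was the lowest of the 10 libraries, and the log2 difference was 0.21 (SE 0.15, 95% interval -0.13 to 0.54, limma unadjusted p = 0.203).

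Itga10, known from cartilage, was read at 0.909, 1.58, 1.73, 0.993 and 1.14 RPKM after antibody. After vehicle it was read at 1.87, 2.80, 1.22, 1.17 and 1.16 RPKM, so that only vehicle replicates 1 and 2 lay above the antibody range. Its log2 difference was -0.25 (SE 0.22, 95% interval -0.72 to 0.23, limma unadjusted p = 0.278), and 33.5% of its exonic bases are shared in GENCODE M21 with a gene on the same strand. Itga2, the collagen receptor of platelets and epithelia, was read at 3.13, 2.69, 2.13, 1.65 and 2.68 RPKM after antibody and at 3.19, 1.90, 1.87, 1.96 and 2.41 RPKM after vehicle. Its groups overlapped, with a log2 difference of 0.09 (SE 0.17, 95% interval -0.28 to 0.47, limma unadjusted p = 0.594).

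The laminin receptors among the integrins are Itga3, Itga6 and Itga7, partners of Itgb1, and Itgb4, which pairs with Itga6 in hemidesmosomes. Itga6, found on endothelium among other cells, was among the steadiest subunits. It was read at 9.77, 11.1, 11.4, 10.1 and 10.6 RPKM after antibody and at 11.5, 10.6, 10.1, 9.58 and 10.2 RPKM after vehicle, a coefficient of variation of 6.32%. The log2 difference was 0.03 with an interval of -0.15 to 0.20, whose upper end is 1.15-fold. Itgb4 was read at 7.73, 7.53, 6.99, 5.47 and 8.98 RPKM after antibody and at 5.92, 6.43, 6.94, 5.10 and 7.11 RPKM after vehicle. Antibody replicates 1, 2 and 5 lay above the vehicle range, and the log2 difference was 0.20 (SE 0.13, 95% interval -0.10 to 0.49, limma unadjusted p = 0.168). Itga3, of epithelia and some vessels, was at 2.61 to 3.28 RPKM after antibody and 2.21 to 4.93 RPKM after vehicle.

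Itga7, the laminin receptor of skeletal and smooth muscle, was read at 5.07, 6.72, 5.02, 9.31 and 20.8 RPKM in antibody replicates 1 to 5. In vehicle replicates 1 to 5 it was read at 8.10, 8.15, 7.99, 14.5 and 8.68 RPKM. Antibody replicate 5 and vehicle replicate 4 stood above all others, and the groups overlapped, with a log2 difference of -0.18 (SE 0.35, 95% interval -0.95 to 0.59, limma unadjusted p = 0.613). Summed markers of skeletal muscle were 3544 RPKM in antibody replicate 5, 6168 RPKM in vehicle replicate 4 and 3890 RPKM in vehicle replicate 5, and 343 to 929 RPKM in the other 7 libraries. Of the 8 skeletal muscle markers, 7 had the lower mean after antibody, and their part in the Itga7 values was not tested.

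**Figure D2:**
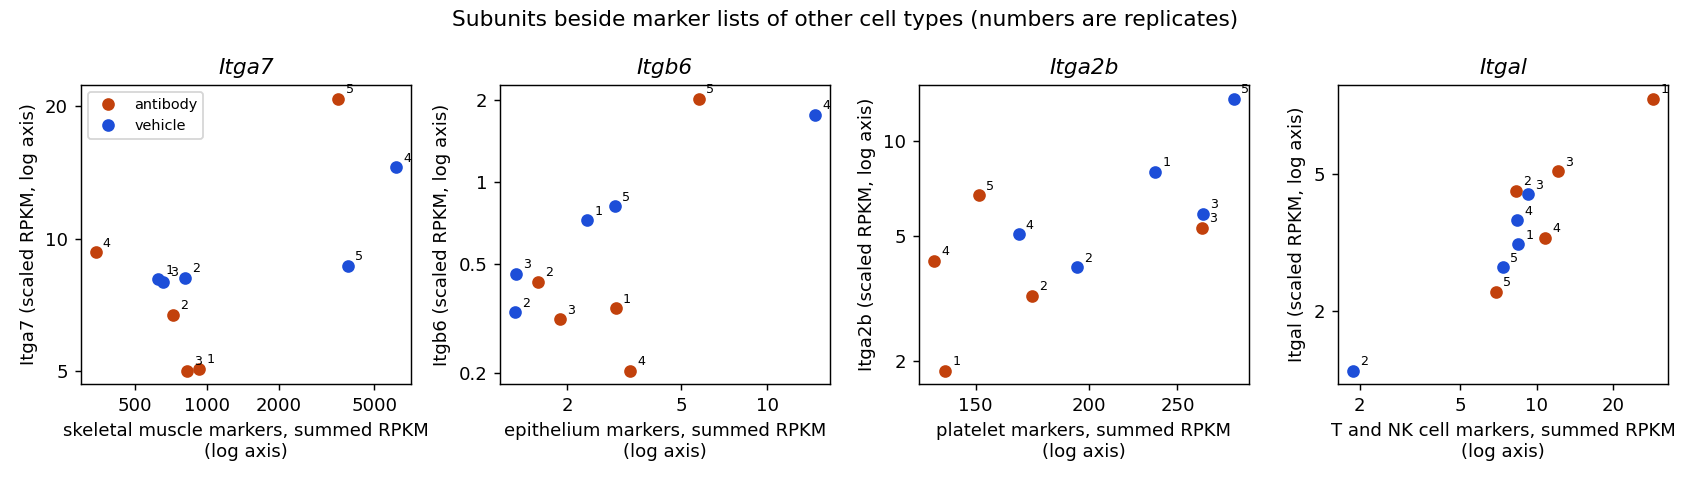
Level of Itga7, Itgb6, Itga2b and Itgal in each of the 10 libraries, in composition-scaled RPKM, against the summed RPKM of marker genes for skeletal muscle, epithelium, platelets and T and NK cells, with log axes and each point numbered by its replicate. Antibody replicate 5 and vehicle replicate 4 are the highest in Itga7 (20.8 and 14.5 RPKM) and in Itgb6 (2.02 and 1.76 RPKM).

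The largest class held the receptors for RGD-bearing and other matrix ligands, whose summed level was 278 ± 23.8 RPKM after antibody and 295 ± 23.6 RPKM after vehicle. Of its 10 subunits, 3 had the higher mean after antibody and 7 the lower, with a median log2 difference of -0.12. Itgb1, the beta chain shared by most matrix receptors, was the most abundant subunit of all, at 143, 159, 153, 142 and 142 RPKM after antibody and 158, 153, 163, 137 and 149 RPKM after vehicle. It had the lowest coefficient of variation of the 37 subunits, 5.86%, and made up 52.2 ± 4.28% of all beta-chain RNA after antibody and 51.6 ± 1.45% after vehicle. The fibronectin receptor chain Itga5 was at 26.4 to 40.9 RPKM after antibody and 27.5 to 55.1 RPKM after vehicle, and Itgav, the vitronectin receptor chain, at 13.3 to 20.3 and 12.7 to 16.0 RPKM. Itga9, a receptor for tenascin and osteopontin, was at 7.24 to 10.2 RPKM after antibody and 7.45 to 9.93 RPKM after vehicle, and Itga8, the nephronectin receptor chain known from smooth muscle, at 0.712 to 1.80 and 0.749 to 2.24 RPKM. Itgb8, which with Itgav activates TGF-beta, was at 0.519 to 0.891 and 0.384 to 0.801 RPKM. The groups overlapped for each of these.

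Itgb3, the beta chain of the platelet fibrinogen receptor and of a vitronectin receptor of vessel cells, was read at 10.6, 15.04, 15.3, 11.7 and 14.4 RPKM after antibody. After vehicle it was read at 17.2, 19.9, 14.8, 13.3 and 17.6 RPKM. Vehicle replicates 1, 2 and 5 lay above every antibody library, and the log2 difference was -0.30 (SE 0.14, 95% interval -0.60 to 0.01, limma unadjusted p = 0.0552, adjusted p = 0.739). Its partner in platelets, Itga2b (CD41), which is made by megakaryocytes and platelets, was read at 1.87, 3.22, 5.30, 4.16 and 6.72 RPKM after antibody. After vehicle it was read at 7.98, 3.96, 5.86, 5.05 and 13.6 RPKM, so that vehicle replicates 1 and 5 were the highest and antibody replicates 1 and 2 the lowest. The log2 difference was -0.69 (SE 0.35, 95% interval -1.47 to 0.09, limma unadjusted p = 0.0773, adjusted p = 0.739). Summed platelet markers were 139, 173, 266, 135 and 151 RPKM after antibody and 236, 194, 267, 167 and 289 RPKM after vehicle. Most of these sums was 1 marker, Pf4, at a mean of 148 RPKM after antibody and 180 RPKM after vehicle. All 6 platelet markers had the lower mean after antibody. Of these, 3 (Gp9, Gp1bb and Gp6) had an unadjusted p below 0.05 in limma, beside 6.53% of all genes tested, and 0 had an adjusted p below 0.05. The part of the platelet markers in the Itga2b and Itgb3 values was not tested.

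Itgb5, a vitronectin receptor chain that pairs with Itgav, was read at 48.8, 57.0, 55.7, 43.4 and 44.1 RPKM after antibody. After vehicle it was read at 52.6, 56.9, 63.3, 47.2 and 59.2 RPKM, which overlapped with the antibody group. The log2 difference was -0.17 (SE 0.12, 95% interval -0.42 to 0.09, limma unadjusted p = 0.185). Itgb6, an epithelial chain that also pairs with Itgav, was read at 2.02 RPKM in antibody replicate 5 and 1.76 RPKM in vehicle replicate 4, and at 0.205 to 0.816 RPKM in the other 8 libraries. Summed epithelial markers were 5.78 RPKM in antibody replicate 5 and 14.7 RPKM in vehicle replicate 4, and 1.31 to 3.33 RPKM in the other 8. Most of the highest sums was 1 marker, Krt18, which reached 4.21 RPKM after antibody and 12.5 RPKM after vehicle, while Krt5, Krt14 and Epcam did not pass the filter on low reads. Of the defining epithelial markers Krt5 and Krt8 were at 0 in 1 library each, and the part of epithelial RNA in the Itgb6 values was not tested.

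The laminin chains summed to 187 ± 24.6 RPKM after antibody and 207 ± 21.6 RPKM after vehicle, and 5 of the 11 had the higher mean after antibody. By level, the chains Lama4, Lamb1, Lamb2 and Lamc1 dominated, those of the laminins that endothelium and smooth muscle are known to make. Lama4, the alpha chain of endothelial laminin, was read at 28.5, 32.0, 24.6, 34.2 and 32.5 RPKM after antibody and at 30.8, 29.8, 29.9, 29.0 and 28.1 RPKM after vehicle. Its vehicle libraries lay within the antibody range, and the log2 difference of 0.03 had an interval of -0.19 to 0.25. Lama5, the alpha chain of mature vessel basement membranes, was at 6.27 to 8.83 RPKM after antibody and 5.77 to 9.27 RPKM after vehicle.

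Lama2, the alpha chain of the laminin around muscle fibres and smooth muscle cells, had the lowest unadjusted p of the 37 subunits. The gene spans 26980036 to 27619758 on chromosome 10 in mm10. It was read at 6.24, 7.19, 5.17, 10.3 and 10.1 RPKM in antibody replicates 1 to 5. In vehicle replicates 1 to 5 it was read at 15.4, 15.9, 9.08, 10.5 and 11.5 RPKM. Antibody replicates 1, 2 and 3 lay below every vehicle library, and only vehicle replicate 3 lay below an antibody library, so the groups overlapped by 1 library. The log2 difference was -0.66 (SE 0.22, 95% interval -1.13 to -0.18), or 0.634-fold with an interval of 0.456 to 0.881, at a limma unadjusted p of 0.0114 and an adjusted p of 0.739. An exact two-sided permutation test of the same values gave p = 0.0397, where the smallest p that 5 against 5 libraries allow is 0.00794. That p is not adjusted for the choice of Lama2 among the 37 subunits, and it rests on the values by which Lama2 was picked. Without the 4 libraries highest in the kidney gene Kap the log2 difference was -0.70 at a limma unadjusted p of 0.0558.

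The libraries highest in skeletal muscle markers, vehicle replicates 4 and 5 and antibody replicate 5, held Lama2 at 10.5, 11.5 and 10.1 RPKM, and the libraries highest in Lama2, vehicle replicates 1 and 2, held 627 and 808 RPKM of these markers. Fibroblast markers summed to 3103 to 3654 RPKM after antibody and 3132 to 4855 RPKM after vehicle. Most of these sums was 1 marker, Col1a1, at a mean of 2598 RPKM after antibody and 2975 RPKM after vehicle. Of the 6 fibroblast markers, 5 had the lower mean after antibody, 1 of them at an unadjusted p below 0.05 in limma. Smooth muscle markers summed to 237 to 438 RPKM after antibody and 307 to 487 RPKM after vehicle. All 6 had the lower mean after antibody, 1 of them at an unadjusted p below 0.05. Of all genes tested, 6.53% had such a p. The part of these cell types in the Lama2 values was not tested.

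As a share of alpha-chain RNA, Lama2 made up 14.4%, 14.9%, 13.5%, 19.8% and 19.3% in antibody replicates 1 to 5, a mean of 16.4 ± 2.93%. In vehicle replicates 1 to 5 it made up 28.7%, 28.6%, 20.0%, 21.9% and 24.7%, a mean of 24.8 ± 3.91%. The shares did not overlap, by a margin between antibody replicate 4 at 19.8% and vehicle replicate 3 at 20.0%, and are given as a description since they rest on the same Lama2 values. Lama4 took the larger share in both groups, 65.0 ± 1.89% and 59.6 ± 4.62%, and Lama5 took 16.5 ± 2.70% and 13.9 ± 2.33%.

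**Figure D3:**
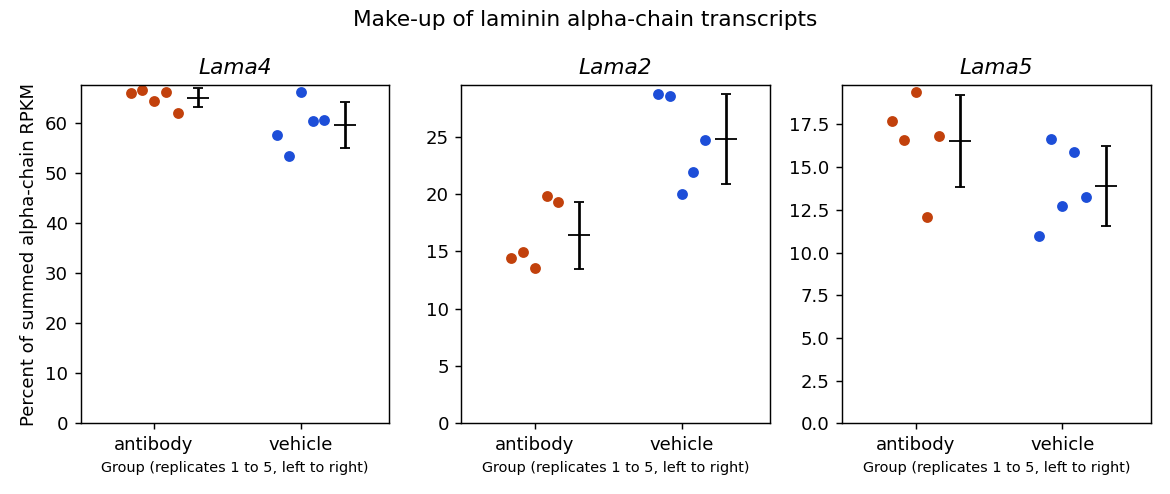
Share of Lama4, Lama2 and Lama5 in the summed RPKM of the 5 laminin alpha chains, as points per library with the mean and SD of each group of 5 as bars. Lama2 makes up 13.5% to 19.8% after antibody and 20.0% to 28.7% after vehicle.

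The low alpha chains were Lama3, of epithelial laminin, and Lama1, the chain of early embryonic and some adult basement membranes. Lama3 was read at 0.797, 0.809, 0.875, 0.983 and 0.868 RPKM after antibody and at 1.03, 0.581, 0.469, 0.811 and 0.561 RPKM after vehicle. Vehicle libraries lay on both sides of the antibody range, and the log2 difference was 0.22 (SE 0.13, 95% interval -0.07 to 0.50, limma unadjusted p = 0.120). Lama1 was read at 0.0450, 0.116, 0.165, 0.0765 and 0.184 RPKM after antibody and at 0.382, 0.206, 0.0874, 0.133 and 0.106 RPKM after vehicle, from as few as 4 reads in a library. At this depth its log2 difference of -0.13 (SE 0.12, 95% interval -0.41 to 0.14, limma unadjusted p = 0.305) rests largely on the added 0.5.

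Lamc1, the gamma chain of nearly all laminins, was the second most abundant subunit. It was read at 57.2, 66.1, 54.4, 63.7 and 76.2 RPKM in antibody replicates 1 to 5. Vehicle replicates 1 to 5 held 72.3, 86.9, 68.5, 64.1 and 73.9 RPKM. The 2 lowest values were antibody libraries and the highest a vehicle library, and the log2 difference was -0.21 (SE 0.12, 95% interval -0.47 to 0.06, limma unadjusted p = 0.117, adjusted p = 0.760). Lamb2, the beta chain of smooth muscle and synaptic laminins, was read at 25.3, 32.2, 26.1, 31.6 and 40.0 RPKM after antibody and at 41.7, 50.9, 30.2, 35.2 and 35.9 RPKM after vehicle. Vehicle replicates 1 and 2 lay above every antibody library, and the log2 difference was -0.31 (SE 0.16, 95% interval -0.67 to 0.05, limma unadjusted p = 0.0819, adjusted p = 0.740).

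Lamb1, the beta chain of most other laminins, had means of 44.4 ± 5.15 RPKM after antibody and 44.4 ± 2.03 RPKM after vehicle, with an interval of -0.22 to 0.21 for the log2 difference. It made up 58.9 ± 2.72% of beta-chain RNA after antibody and 53.7 ± 4.29% after vehicle, and the shares overlapped. Lamb3, the beta chain that joins Lama3 in epithelial laminin, was low. It was read at 0.275, 0.203, 0.135, 0.283 and 0.253 RPKM after antibody and at 0.286, 0.141, 0.0861, 0.199 and 0.118 RPKM after vehicle, with a log2 difference of 0.14 (SE 0.10, 95% interval -0.09 to 0.36, limma unadjusted p = 0.217). These overlapped. Lamc3, the other low chain described here, was at 0.115 to 0.513 RPKM over the 10 libraries.

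**Figure D4:**
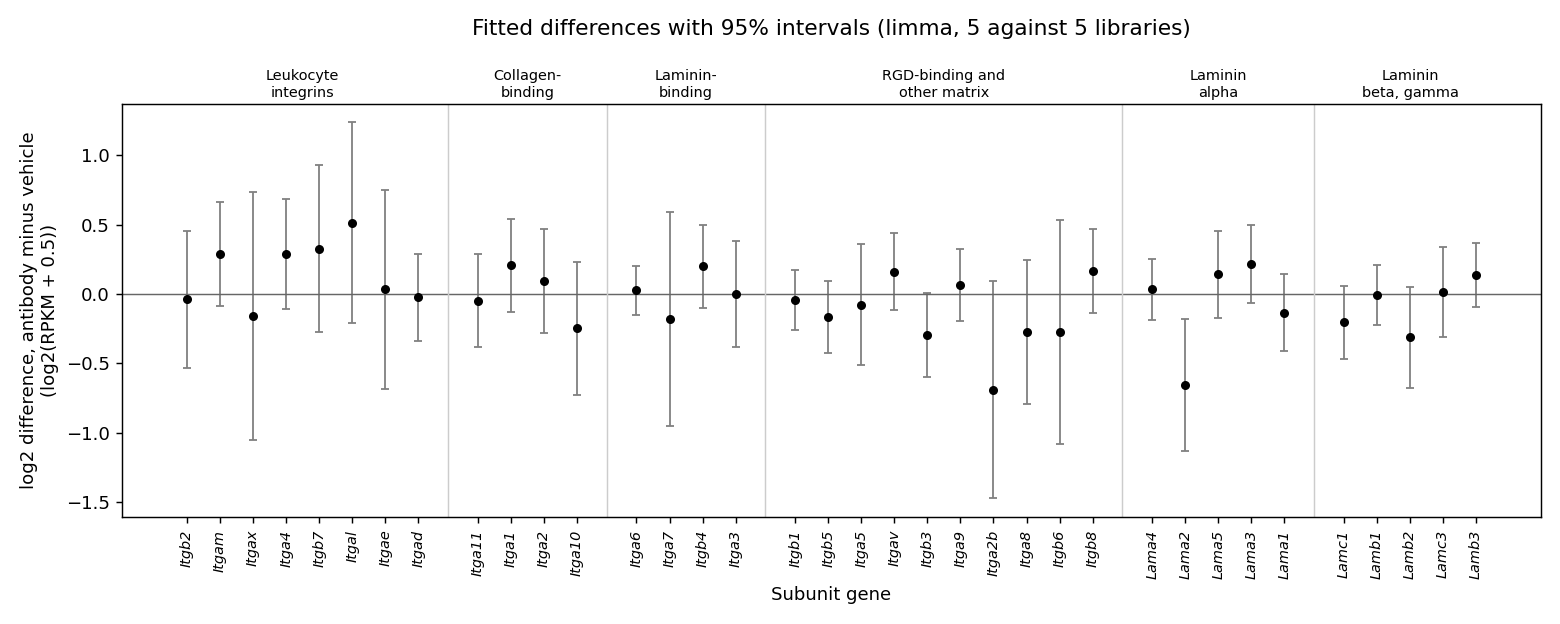
Fitted log2 difference of the subunits, antibody minus vehicle on the scale of log2(RPKM + 0.5), with the 95% interval of limma from 5 against 5 libraries. Of the intervals shown, that of Lama2 alone leaves out 0, at -1.13 to -0.18.

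Partner subunits were compared across libraries for 16 pairs, with Benjamini-Hochberg adjustment over the 16 and 100000 permutations each. Lamb2 followed Lamc1 over the 10 libraries with Pearson's r = 0.93 and Spearman's rho = 0.87 (adjusted permutation p = 0.00400 and 0.0333), and r = 0.84 without the 2 libraries farthest from the median of Lamc1. Lama2 followed Lamc1 with r = 0.85 and rho = 0.72 (adjusted permutation p = 0.0174 and 0.0854), and r = 0.67 without those 2 libraries. Without antibody replicate 1, antibody replicate 3 or vehicle replicate 2 the pair of Lama2 and Lamc1 no longer passed. For Lamb1 and Lama4 with Lamc1, r was 0.66 and 0.41 (adjusted permutation p = 0.116 and 0.342). After removal of the group means r was 0.90 for Lamb2, 0.79 for Lama2, 0.77 for Lamb1 and 0.58 for Lama4, with adjusted permutation p of 0.0155, 0.0298, 0.0298 and 0.170. Differences between these correlations were not tested. All values of a library share its depth and scaling.

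The windows of Lama2 and Lamb2 are shown because the levels of these chains followed Lamc1, for which no RefSeq window was used. They are on build GRCm38.p6, chr10:27616943-27617192 on the minus strand for Lama2, and chr9:108479779-108479856 on the plus strand for Lamb2, cut so that no exon of GENCODE M21 is shown. Capitals mark GGGGTGGGG, a GT-box of the kind that Sp1 and KLF factors are known to read, which was chosen after the sequences had been seen.
Lama2: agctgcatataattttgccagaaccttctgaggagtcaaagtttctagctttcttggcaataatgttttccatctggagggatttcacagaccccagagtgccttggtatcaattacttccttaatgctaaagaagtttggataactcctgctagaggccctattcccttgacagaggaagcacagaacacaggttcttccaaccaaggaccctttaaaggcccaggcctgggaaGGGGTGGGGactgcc
Lamb2: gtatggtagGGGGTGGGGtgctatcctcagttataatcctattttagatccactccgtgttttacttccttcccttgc
Searched on both strands (GGGGTGGGG or CCCCACCCC), 5.61% of all 32851 windows of 250 bases held it, as did 5 of the 23 subunits with a window. These 5 were Lama2, Lamb2, Lamb1, Itgb7 and Itgb8, and a match is given as a description only. The matches of Lama2 and Lamb2 were fixed by the choice of the letters. The count of 5 therefore cannot be set against the share of all windows. Both stretches shown lie inside the genes as GENCODE M21 draws them, outside its exons, since that annotation starts both genes further upstream than RefSeq does.

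For the leukocyte pairs, Itgax, Itgam and Itgal followed Itgb2 with r = 0.75, 0.69 and 0.64 and rho = 0.71, 0.78 and 0.77, at adjusted permutation p for r of 0.0644, 0.106 and 0.123. After removal of the group means r was 0.75, 0.82 and 0.74 (adjusted permutation p = 0.0367, 0.0295 and 0.0367). Without the 2 libraries farthest from the median of Itgb2, r was 0.49, 0.75 and 0.73. Itga7 ran against Itgb1 with r = -0.50 (adjusted permutation p = 0.261), and the pair Itgb3 and Itga2b had r = 0.58 (adjusted permutation p = 0.175). Itgb1 with Itga1, Itgb3 with Itgav and Itgb5 with Itgav had r of 0.11, -0.03 and 0.18, which depended on the scaling: without it r was 0.81 (adjusted permutation p = 0.0122), 0.20 and 0.51.

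**Figure D5:**
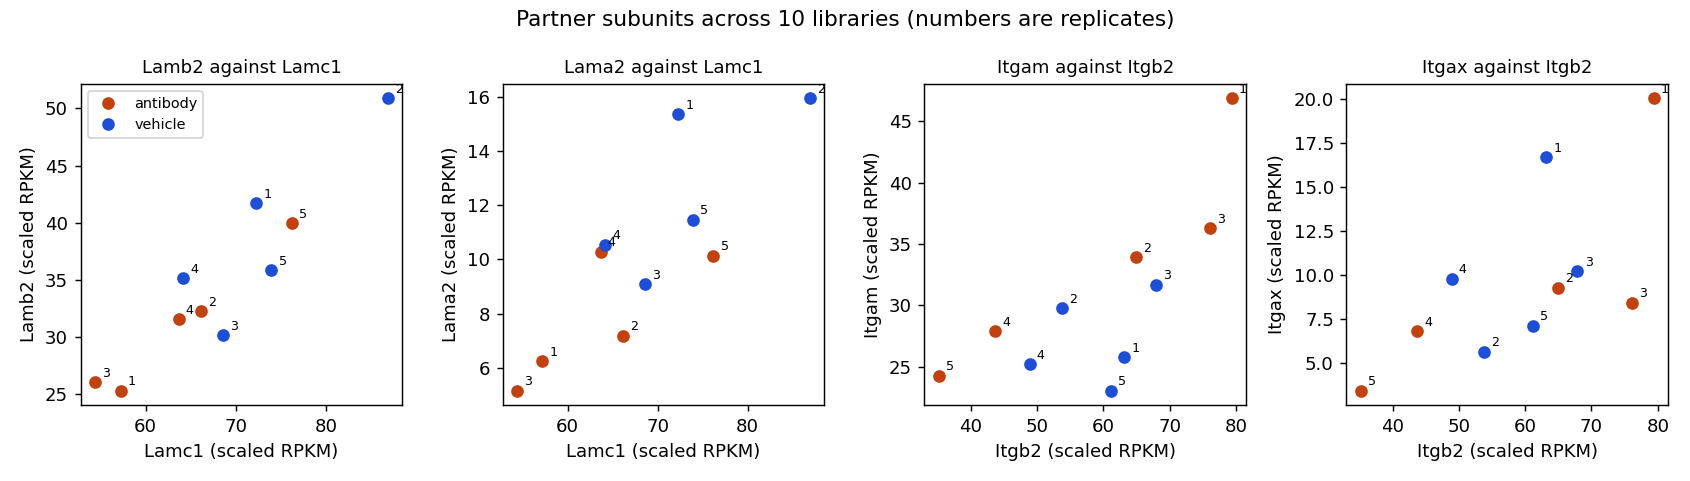
Lamb2 and Lama2 against Lamc1, and Itgam and Itgax against Itgb2, in composition-scaled RPKM with 1 point per library, numbered by replicate. Lamb2 is higher where Lamc1 is higher, across both groups (r = 0.93), and antibody replicate 1 is the highest library in Itgb2, Itgam and Itgax.

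Genes that work with these subunits gave no call at an adjusted p below 0.05 in limma either. Of 30 adaptor and signalling genes, 14 had the higher mean after antibody and 16 the lower. Beside 6.53% of all genes tested, 1 of the 30 had an unadjusted p below 0.05. This was Ilk, the integrin-linked kinase scaffold, at 29.7 ± 2.89 RPKM after antibody and 35.4 ± 4.25 RPKM after vehicle, a log2 difference of -0.24 (limma unadjusted p = 0.0425). Skap1, an adaptor of T cells, was at 0.338 ± 0.175 and 0.171 ± 0.0712 RPKM (log2 difference 0.30), and Lims2, a partner of Ilk, at 7.03 ± 1.81 and 9.31 ± 2.26 RPKM (log2 difference -0.38). The groups overlapped for each.

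Of 15 basement membrane partners and laminin receptors, 3 had the higher mean after antibody and 12 the lower. Of all genes tested, 48.8% had the higher mean. The median log2 difference was -0.09 for the 15 and -0.01 for all genes tested. Bcam, the Lutheran receptor for laminins with the Lama5 chain, was at 10.8 ± 1.75 RPKM after antibody and 13.7 ± 1.81 RPKM after vehicle, a log2 difference of -0.34 (limma unadjusted p = 0.0201, adjusted p = 0.739). Nid1, the nidogen that binds the gamma chain and links laminin to collagen IV, was at 103 ± 20.7 and 131 ± 17.7 RPKM (log2 difference -0.36), and Dag1, the dystroglycan that binds Lama2, at 23.5 ± 6.05 and 27.0 ± 3.06 RPKM (log2 difference -0.23).

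Of 18 ligand genes, 14 passed the filter, 6 with the higher mean after antibody and 8 with the lower. Vcam1, the ligand of Itga4, was at 28.6 ± 7.48 RPKM after antibody and 20.1 ± 4.03 RPKM after vehicle, a log2 difference of 0.49 (limma unadjusted p = 0.0293, adjusted p = 0.739). Tnc, a ligand of Itga9, was at 98.0 ± 19.8 and 134 ± 39.7 RPKM (log2 difference -0.42), and Npnt, the ligand of Itga8, at 2.23 ± 1.40 and 3.15 ± 0.844 RPKM (log2 difference -0.51). The groups overlapped for these 3 as well.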

How the data were processed

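RNA was sequenced from 10 libraries of fistula outflow vein, 5 per group, grouped by their titles and descriptions. The authors deposited 1 table with RPKM per gene and library, per the file headers, with averages of these, a fold ratio and an unadjusted p-value. Per the submitters' processing notes the build is mm10. The aligner, counter, annotation release and strand setting are details not given in the sources used here, so reads of overlapping or antisense genes cannot be told apart.

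Multiplying each RPKM back by gene length gave whole reads for 100% of values within 0.001, and so the depth of each library, 4282872 to 34271554 reads. At the deepest and the shallowest library, 3 reads correspond to 0.0875 and 0.700 CPM, a limit that covers counting error only. RPKM were divided by trimmed mean of M values (TMM) factors of 0.841 to 1.13. Genes were kept with at least 0.513 CPM (10 reads at median depth) in at least 5 libraries and 15 reads in all. Differences on log2(RPKM + 0.5) were fitted by limma 3.58.1 (R 4.3.3), trend on, with group as the only term, two-sided, and Benjamini-Hochberg adjusted over all 17859 genes kept.

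The members, gene lists and marker lists were chosen with earlier results of these data known. In each class the 3 subunits of smallest unadjusted p were given with their differences and the most abundant with its levels, and in each list the 3 of smallest unadjusted p. Shares are percentages of summed RPKM. Promoter windows are from RefSeq (GRCm38.p6), and exon overlap from GENCODE M21, in which all 37 subunits were found, 27 with the coordinates of the table. Of the 37, 25 share no exonic base with another gene and 3 (Itgam, Itga10 and Itgad) share more than 10%. Values of 1 subunit are counted in the totals and not reported here. Alternatives covered scaling, pseudocount, filter, limma-voom, a replicate block and each library left out.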

Additional observations from a re-analysis of the deposited data

Results flagged for a closer look

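In 74 tests of the gap between the most extreme library of a group and its nearest neighbour, 6 passed Dixon's 95% critical value for 5 samples, where chance passes about 1 in 20. Itga7 was at 20.8 RPKM in antibody replicate 5, with the next antibody library at 9.31, and at 14.5 RPKM in vehicle replicate 4, with the next vehicle library at 8.68. Itgb6 was at 2.02 RPKM in antibody replicate 5, with the next at 0.432. Itgae was at 2.13 RPKM in antibody replicate 1, with the next at 0.682. Lamc3 was at 0.513 RPKM in antibody replicate 4, with the next at 0.222. Itga9 was at 7.24 RPKM in antibody replicate 4, below the next at 9.42.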

How the results depend on the processing

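None of 21 alternatives gave a subunit an adjusted p below 0.05 in limma. Over all genes the number called was 0, and 1 with no filter: Gm27598, named after its values were seen. The direction of 17 of the 18 subunits given with differences held in each alternative run. The exception was Itga6, whose log2 difference without 1 library ranged from -0.0010 (without vehicle replicate 4) to 0.062 (without vehicle replicate 1). Lama2 ranged from -0.77 to -0.53. The number of subunits at an unadjusted p below 0.05, 1 in the fit reported, was 2 with scaling by medians of ratios, with limma-voom and with protein-coding genes only (5.94% to 6.80% of all genes tested), 4 with limma-voom and quality weights (10.8%, against 7.11%), and 0 without the 4 libraries highest in Kap (antibody replicates 2 and 4, vehicle replicates 1 and 5), which leave 3 libraries per group. With 1 library left out it ranged from 1 to 8. The 8 (21.6%, against 8.47% of all genes tested) came without antibody replicate 5 and were Lama2, Lamb2, Lamc1, Itga2b, Itga7 and Itgb6 at the lower mean after antibody and Itgal and Itgam at the higher, and it was 3 without vehicle replicate 3 (8.11%, against 4.95%) and 2 without each of antibody replicates 2, 3 and 4 and vehicle replicates 1, 2 and 4. The cause was not tested. Over all genes this number was 1166 (6.53%), and 516 (3.20%) without the 4 libraries highest in Kap.

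With the replicate number as a block, 4 subunits (Itga4, Lama2, Itga2b and Itgb3) had an unadjusted p below 0.05 (10.8%, against 7.01% of all genes tested) and 0 an adjusted p below 0.05. The labels do not tie the numbers to a litter or day, and the deviations of same-numbered libraries correlated at -0.0953 to 0.347. Replicate 3 alone correlated best with its own number, so the numbers were not taken to pair the libraries. The number of partner pairs with an adjusted permutation p below 0.05 for Pearson's r was 2 (1 for rho), and 6 on residuals from group means, 5 with no scaling, 0 without the 2 libraries farthest from the median, and 1 to 2 with 1 library left out (1 without antibody replicate 1 or antibody replicate 3, which lose Lama2 with Lamc1). Without vehicle replicate 2 that pair was also lost (adjusted permutation p = 0.0558) and Itgb3 with Itga2b was gained (r = 0.83, adjusted permutation p = 0.0466). Without scaling the median log2 difference was 0.06 for all genes and 0.05 for the subunits. Depth limited Lama1, Lamb3, Lamc3 and Itgad, read at 4 or 5 reads in their lowest library.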
